A study of Mus musculus with 26 samples.

Results

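Cytochrome P450 genes were described by their place relative to the domain boundaries of mouse embryonic stem cells. The set comprised every protein-coding gene that RefSeq annotates on GRCm38.p6 (mm10) and whose symbol is Cyp followed by a digit. It held 99 of 21521 protein-coding genes, on 15 chromosomes and in 17 families. Of these, 48 belonged to family Cyp2, 9 to Cyp3, 20 to Cyp4 and 22 to the other families. Members of one family were joined into an array when the gap between neighbours was at most 200 kb. By this definition 66 genes formed 8 large arrays of at least 5 members, 8 genes formed 4 pairs, and 25 genes stood alone.

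Cytochrome P450 enzymes are haem-containing monooxygenases of the endoplasmic reticulum and the mitochondrion. Families Cyp1, Cyp2 and Cyp3 are best known for drug and toxicant clearance in liver, lung and gut, and Cyp4 enzymes hydroxylate the ends of fatty acids and eicosanoids. Families with higher numbers mostly make or degrade steroid hormones, bile acids, vitamin D and retinoic acid. Tandem duplication has placed many Cyp2, Cyp3 and Cyp4 genes side by side, and neighbours in such arrays often share receptors that control them. Domains are stretches of chromatin whose sequences contact each other more than they contact sequences beyond a boundary, and cohesin is needed for most of them.

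The contact maps came from Micro-C, in which crosslinked chromatin is cut with micrococcal nuclease and ligated. The 26 libraries comprise ESCs in G1 given 20 µM A485 (6 libraries), which blocks the histone acetyltransferases p300 and CBP, ESCs given 500 nM dTAG (6 libraries), which degrades the tagged cohesin subunit RAD21, and ESCs given 0.05% v/v DMSO (6 libraries). Epiblast-like cells (EpiLCs) were given dTAG (4 libraries) or DMSO (4 libraries). The titles of all 26 libraries carry the label G1. All groups carry the RAD21 degradation tag in a Bruce-4 derived line of C57BL/6J genotype, so none of them is an untagged control, and the ESC cultures were kept in serum, 2i and LIF. The values used here are a single list of 3515 boundaries from the pooled DMSO-treated ESC libraries, each an interval of 25 kb without a score. The other 4 groups were not analysed here. The pooled list has no value per library, so no value has a replicate error or a test, contact numbers at single boundaries are unknown, and 95% intervals cover counting error alone. No expression was part of these values, so the cell type was not checked against markers.

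Few Cyp genes ended close to a boundary. A gene was counted as near when an end lay inside a boundary interval or within 10 kb of one, and 8 of the 99 Cyp genes (8.08%, Wilson 95% interval 4.15 to 15.1%) were near, against 3935 of 21521 protein-coding genes (18.3%). Within 50 kb lay 21 Cyp genes (21.2%), against 35.6% of all protein-coding genes. Genes of 1 array share a domain and are not independent, so the interval is narrower than the data warrant. With each array counted once, as near if any member was, 6 of 37 loci (16.2%) were near. The 18.3% of all genes counts single genes, which were not joined into loci. A locus of many members has more ends that can be near, so these shares are not alike.

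The 8 near genes were spread over arrays and single genes. An end of Cyp2f2, Cyp4f17, Cyp39a1 and Cyp19a1 lay inside an interval. Cyp2f2 activates naphthalene in the airway, Cyp39a1 hydroxylates oxysterols, and Cyp19a1 is aromatase, which makes oestrogens. Outside but near were Cyp2t4 at 3.71 kb, Cyp2d26 at 5.55 kb, Cyp26b1, a retinoic acid hydroxylase, at 6.09 kb, and Cyp4f39, an enzyme of skin lipid synthesis, at 6.68 kb. Just beyond the 10 kb limit lay Cyp2j5 at 10.8 kb and Cyp4f16 at 11.5 kb, followed by Cyp2u1 at 15.5 kb and Cyp2j13 at 17.7 kb.

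The distance from the nearer gene end to the nearest boundary had a median of 137 kb over the Cyp genes (quartiles 70.4 and 266 kb), against 98.9 kb over all protein-coding genes (quartiles 22.8 and 229 kb). The 95% interval of the Cyp median from order statistics, 95.7 to 170 kb, held the median of all genes. The longer distances belonged to the large arrays, whose 66 genes had a median of 166 kb, whereas the 33 Cyp genes outside them had a median of 89.4 kb. With 1 value for each array the Cyp median was 92.8 kb, below that of all genes. Family medians were 152 kb for Cyp2, 261 kb for Cyp3, 118 kb for Cyp4 and 96.4 kb for the remaining families. Of the 8 large arrays, 5 had a median above 98.9 kb.

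**Figure D1:**
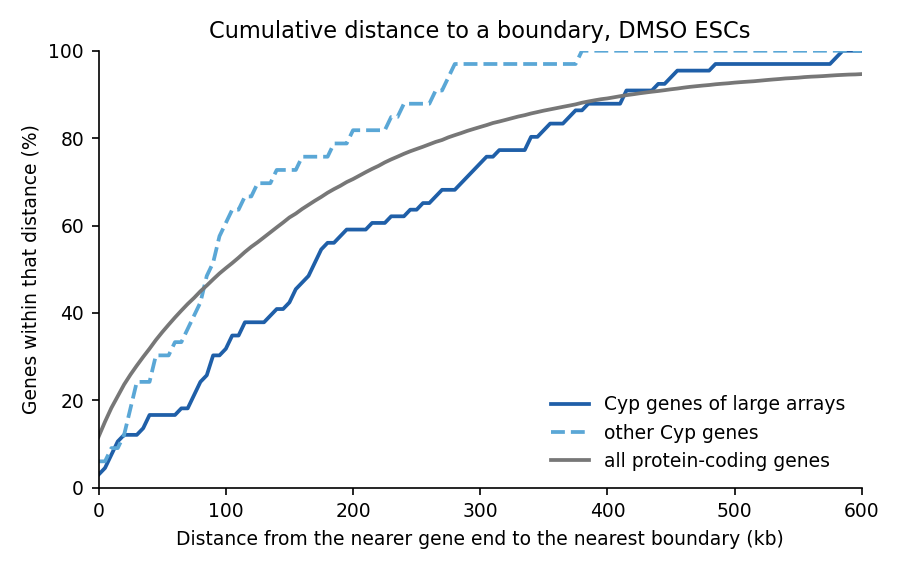
Cumulative share of genes (%, vertical axis) whose nearer end lies within a given distance (kb, horizontal axis) of a boundary, for Cyp genes of large arrays (dark blue line, n = 66), other Cyp genes (light blue dashed line, n = 33) and all protein-coding genes (grey line, n = 21521). Both Cyp curves start below the grey line, at 3.03% and 6.06% against 11.7% inside a boundary, and only the curve of the large arrays stays below it over most of the range.

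The arrays filled few domains. A gene was assigned to the stretch between neighbouring boundaries that held its midpoint. The midpoints of 97 Cyp genes lay in 36 domains and those of Cyp2f2 and Cyp4f17 in boundaries. Only 7 of the 36 domains held 5 or more Cyp genes, and these 7 held 64 Cyp genes (64.6%). Another 26 domains held a single Cyp gene each. The 7 domains had a median length of 775 kb (450 to 1400 kb), against 500 kb over all 3495 domains (125 to 12000 kb). A longer domain has more room for genes, and the choice of domains by their Cyp count was not corrected for that.

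**Figure D2:**
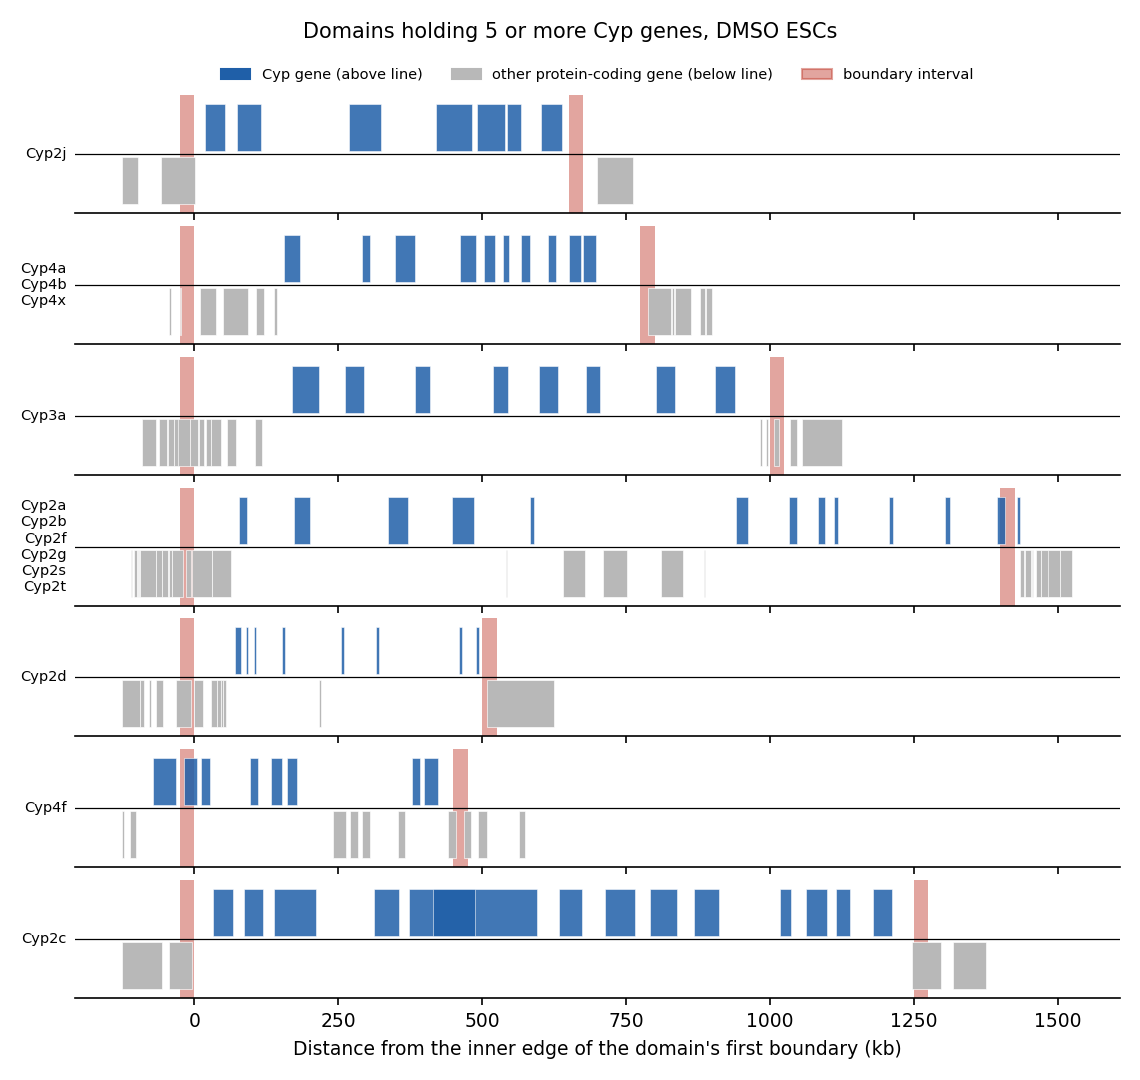
Maps of the 7 domains that held 5 or more Cyp genes, with distance from the inner edge of the first boundary (kb) on the horizontal axis. Blue blocks above each line are Cyp genes, grey blocks below are other protein-coding genes, and red bands are boundary intervals of 25 kb. In the Cyp2j and Cyp2c domains, every protein-coding gene with its midpoint inside is a Cyp gene. A boundary falls on a Cyp gene in the Cyp2a, Cyp2b, Cyp2f, Cyp2g, Cyp2s and Cyp2t row and in the Cyp4f row.

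The Cyp2c genes formed the longest array, and it matched the extent of 1 domain. These enzymes oxidise drugs and arachidonic acid, and mouse Cyp2c70 makes muricholic bile acids. The 14 genes from Cyp2c55 to Cyp2c70 covered 1180 kb of chromosome 19 (39006940 to 40187286) inside a domain of 1250 kb (38975001 to 40225000), 94.4% of its length. No other protein-coding gene had its midpoint there. Of all domains, 13.1% were at least as long as this array. The left gap to the boundary was 31.9 kb and the right gap 37.7 kb. The left boundary overlapped Hells, and the right one overlapped Pdlim1. Distances were lowest at the ends, at 31.9 kb for Cyp2c55 and 37.7 kb for Cyp2c70, and highest in the middle, at 576 kb for Cyp2c67. Between these lay Cyp2c65 (86.0 kb), Cyp2c50 (111 kb), Cyp2c66 (139 kb), Cyp2c54 (151 kb) and Cyp2c37 (213 kb). The inner genes Cyp2c29, Cyp2c69, Cyp2c39, Cyp2c40, Cyp2c38 and Cyp2c68 lay 312 to 484 kb away. Cyp2c39 is annotated over 222 kb and overlaps Cyp2c38, so these neighbours have no gap.

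The Cyp2j genes filled another domain. They encode epoxygenases of arachidonic acid, among them Cyp2j5 of the kidney. The 7 genes from Cyp2j13 to Cyp2j5 covered 622 kb of chromosome 4 (96042660 to 96664171) in a domain of 650 kb (96025001 to 96675000), or 95.6% of it. No other protein-coding gene had its midpoint in this domain. The gaps to the boundaries were 17.7 kb beside Cyp2j13 and 10.8 kb beside Cyp2j5. The left boundary overlapped Hook1 and the right one overlapped no protein-coding gene. Inside, Cyp2j12 (74.3 kb), Cyp2j9 (82.5 kb), Cyp2j6 (111 kb), Cyp2j8 (168 kb) and Cyp2j11 (270 kb) were farther from a boundary than either end gene. All 7 genes were on the minus strand. Of the 1222 domains with at least 5 protein-coding genes, 24 held a single symbol stem only: 2 of these were the Cyp2c and Cyp2j domains, 7 were olfactory receptor (Olfr) domains, 2 were vomeronasal receptor (Vmn) domains and 13 had other stems.

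The Cyp2a, Cyp2b, Cyp2f, Cyp2g, Cyp2s and Cyp2t genes of chromosome 7 fell into a run of 5 genes and a run of 8 genes, separated by 350 kb without a boundary. They include Cyp2b10, which phenobarbital induces through the receptor Car, the steroid hydroxylase Cyp2a4, the coumarin hydroxylase Cyp2a5 and Cyp2g1 of the olfactory mucosa. The first run, Cyp2s1 to Cyp2a4 (25802469 to 26315088), and 6 genes of the second, which begins with Cyp2b23 (26665227 to 27158564), shared a domain of 1400 kb (25725001 to 27125000), longer than 90.4% of all domains. This domain held 11 Cyp genes and 7 other protein-coding genes. Its left boundary overlapped Ccdc97, Hnrnpul1 and Tgfb1. Its middle held the largest distance of any Cyp gene, 582 kb for Cyp2a4, with Cyp2b9 at 448 kb and Cyp2b23 at 439 kb on either side. Towards the left boundary followed Cyp2b13 (336 kb), Cyp2b10 (173 kb) and Cyp2s1 (77.5 kb). Towards the right boundary followed Cyp2b19 (352 kb), Cyp2g1 (304 kb), Cyp2a5 (282 kb), Cyp2a22 (186 kb) and Cyp2a12 (88.2 kb), a bile acid hydroxylase.

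The right boundary of this domain, 27125001 to 27150000, overlapped Cyp2f2 and no other protein-coding gene. Cyp2f2 spans 27119955 to 27133660 on the plus strand, so its annotated start lay 5.05 kb before the interval and its other end inside it. Beyond the boundary lay Cyp2t4, whose start was 3.71 kb from it, in a domain of 1225 kb with 43 other protein-coding genes. The promoters of Cyp2f2 (chr7:27119705-27120004, plus strand) and Cyp2t4 (chr7:27153464-27153763, plus strand) are shown because the start sites of this pair flank the boundary. The sequences are those of RefSeq for GRCm38.p6, from 250 bases before the start to 50 after it, written 5′ to 3′ with each CG dinucleotide in capitals.
Cyp2f2: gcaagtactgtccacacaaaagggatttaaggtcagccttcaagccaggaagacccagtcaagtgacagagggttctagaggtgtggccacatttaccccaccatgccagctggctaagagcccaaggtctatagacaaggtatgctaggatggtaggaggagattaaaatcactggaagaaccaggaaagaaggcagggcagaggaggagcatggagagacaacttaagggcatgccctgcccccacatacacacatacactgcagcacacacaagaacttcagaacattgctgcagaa
Cyp2t4: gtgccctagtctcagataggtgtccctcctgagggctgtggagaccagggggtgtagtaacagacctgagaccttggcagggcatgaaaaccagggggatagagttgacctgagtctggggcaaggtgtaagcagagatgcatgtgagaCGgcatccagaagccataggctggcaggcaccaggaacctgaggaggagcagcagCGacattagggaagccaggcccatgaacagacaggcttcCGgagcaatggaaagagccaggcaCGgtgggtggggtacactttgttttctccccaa
The Cyp2f2 window held 0 CG dinucleotides and the Cyp2t4 window held 4.

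The Cyp2d genes lay in the shortest of the domains that hold large Cyp2 arrays. They are relatives of the human debrisoquine hydroxylase, and Cyp2d9 is a testosterone hydroxylase of male mouse liver. The 8 genes from Cyp2d22 to Cyp2d26 covered 424 kb of chromosome 15 (82370527 to 82794452) in a domain of 500 kb (82300001 to 82800000), 84.8% of it, with 6 other protein-coding genes. The left boundary overlapped Septin3 and Wbp2nl and lay 70.5 kb from Cyp2d22, and the right boundary overlapped Tcf20 and lay 5.55 kb from Cyp2d26. The second nearest gene was Cyp2d40 at 35.9 kb. Cyp2d11 (89.2 kb), Cyp2d10 (103 kb), Cyp2d9 (152 kb), Cyp2d34 (179 kb) and Cyp2d12 (241 kb) lay farther inside. The right end of the array thus lay much closer to a boundary than its left end.

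The Cyp3a genes had a median distance of 278 kb, exceeded among the large arrays only by the 336 kb of the run from Cyp2s1 to Cyp2a4. Cyp3a enzymes oxidise drugs, steroids and bile acids, and Cyp3a11, the main form of adult mouse liver, is induced through the receptor Nr1i2. The 8 genes from Cyp3a57 to Cyp3a59 covered 770 kb of chromosome 5 (145345149 to 146114978) in a domain of 1000 kb (145175001 to 146175000), 77.0% of it, with 7 other protein-coding genes. The nearest were Cyp3a59 at 60.0 kb, Cyp3a25 at 165 kb and Cyp3a57 at 170 kb. Cyp3a16, a form of the fetal and newborn liver, lay 261 kb away, and Cyp3a11 lay 295 kb away. Cyp3a44 (369 kb), Cyp3a41b (384 kb) and Cyp3a41a (455 kb), which are higher in female liver, lay deepest. The left boundary overlapped Cpsf4 and Ptcd1 and the right one overlapped 1700001J03Rik. No member of the array was near a boundary.

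The Cyp4a array, with Cyp4x1 at one end and Cyp4b1 at the other, lay off-centre in its domain. Cyp4a enzymes hydroxylate fatty acids, and Cyp4a10 and Cyp4a14 are induced through the receptor Ppara. The 10 genes covered 541 kb of chromosome 4 (115106323 to 115647721) in a domain of 775 kb (114950001 to 115725000), 69.9% of it. The other 4 protein-coding genes had their midpoints outside the span of the array. The left boundary overlapped Foxe3 and lay 156 kb from Cyp4x1, and the right boundary overlapped Efcab14 and lay 77.3 kb from Cyp4b1, an enzyme that activates pneumotoxins. Cyp4a12a, the arachidonic acid hydroxylase of male mouse kidney, was the deepest at 349 kb. It was followed by Cyp4a29 (292 kb), Cyp4a12b (286 kb), Cyp4a30b (254 kb), Cyp4a14 (229 kb), Cyp4a10 (191 kb), Cyp4a31 (146 kb) and Cyp4a32 (102 kb). None of the 10 genes was near a boundary.

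The Cyp4f genes of chromosome 17 were the closest to boundaries among the large arrays, with a median distance of 53.9 kb. Cyp4f enzymes inactivate leukotrienes and hydroxylate very long fatty acids. The 6 genes from Cyp4f39 to Cyp4f15 covered 251 kb (32452697 to 32703352), and a boundary at 32500001 to 32525000 crossed them. It overlapped Cyp4f17 and no other protein-coding gene. Cyp4f39 lay on its left side at 6.68 kb, in a domain of 425 kb with 8 other protein-coding genes. On its right side lay Cyp4f16 at 11.5 kb, Cyp4f37 at 96.3 kb, Cyp4f40 at 134 kb and Cyp4f15 at 161 kb. Their domain of 450 kb (32525001 to 32975000) also held the pair Cyp4f14 (57.6 kb) and Cyp4f13 (27.6 kb), which stood 200.004 kb from Cyp4f15, just over the limit for joining an array. The 5 other protein-coding genes of this domain were zinc finger genes, and its right boundary overlapped Zfp472 and Zfp952.

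**Figure D3:**
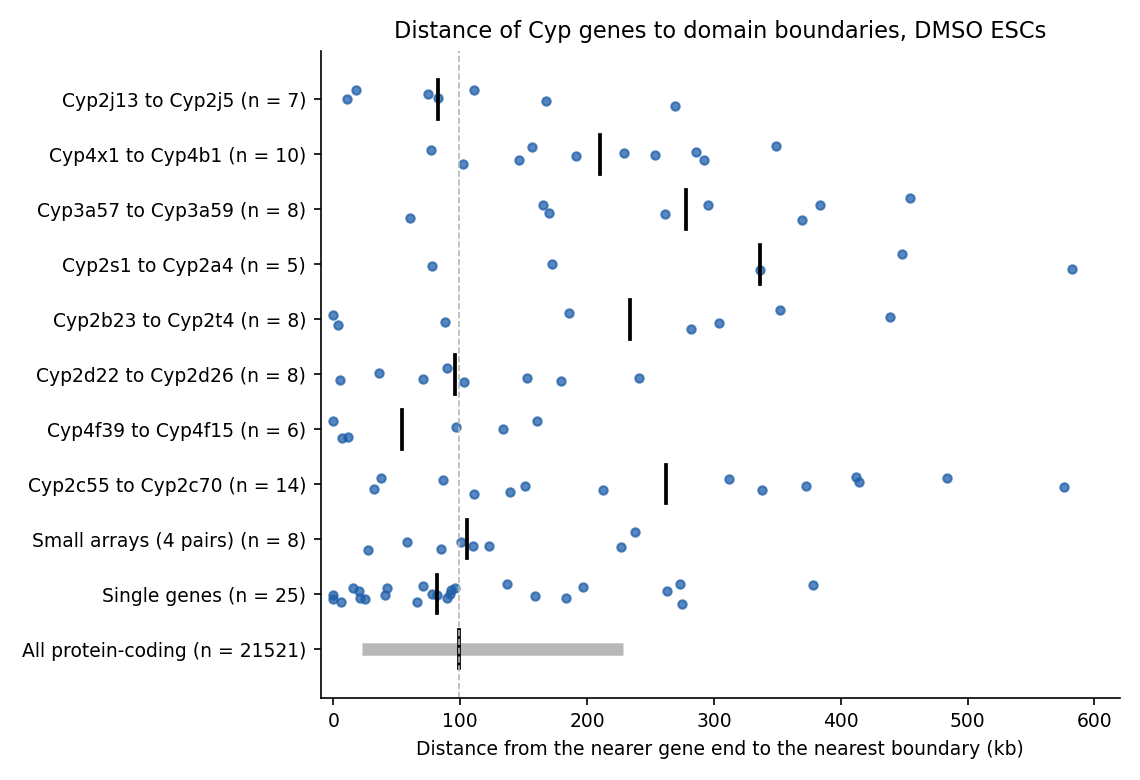
Distance (kb, horizontal axis) from the nearer end of each Cyp gene to the nearest boundary, with 1 blue point for each gene and 1 row for each large array, the 4 pairs together and the single genes. Black bars are medians, the grey bar spans the quartiles of all protein-coding genes (22.8 to 229 kb), and the dashed line is their median of 98.9 kb. The row medians run from 53.9 kb for the array of Cyp4f39 to Cyp4f15 to 336 kb for the run of Cyp2s1 to Cyp2a4.

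Boundaries inside Cyp arrays were few and lay near the arrays' ends. Of the 12 arrays, 2 were crossed by a boundary, and of the 8 large arrays 6 lay within a single domain. The crossing boundaries were those on Cyp2f2 and on Cyp4f17, and each left only an end gene of its array on the far side. The 8 large arrays covered 4.79 Mb with 2 boundaries, 0.417 per Mb (exact Poisson 95% interval 0.0505 to 1.51), which holds the 1.37 per Mb of the whole list. Thus the count did not separate the arrays from the list at this length.

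Among neighbouring Cyp genes of an array, 2 of 62 pairs had the middle of a boundary between their midpoints (3.23%, Wilson 95% interval 0.889 to 11.0%), against 2456 of 19982 neighbouring protein-coding pairs with a gap of at most 200 kb (12.3%). The separated pairs were Cyp2f2 with Cyp2t4, 20.1 kb apart, and Cyp4f39 with Cyp4f17, 12.9 kb apart. Cyp neighbours were taken among the Cyp genes of an array, and pairs in general among all protein-coding genes. Another protein-coding gene lay between Cyp2b9 and Cyp2a4 and between Cyp2d9 and Cyp2d12, both pairs with gaps of 50 to 200 kb. Cyp neighbours stood farther apart than neighbours in general, with a median gap of 35.6 kb against 11.1 kb, so the shares were also taken by gap. With gaps of 50 to 200 kb, 0 of 23 Cyp pairs were separated, which allows a share of up to 13.0%, against 828 of 3356 pairs in general (24.7%). With gaps of 20 to 50 kb 1 of 19 Cyp pairs was separated (5.26%), against 12.3%, and under 20 kb 1 of 20 (5.0%), against 8.99%. Pairs of 1 array share a domain and are not independent. A boundary lay wholly within the gap of 0 of the 62 Cyp pairs, which allows a share of up to 4.84% and so does not differ detectably from the 2.11% of pairs in general.

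**Figure D4:**
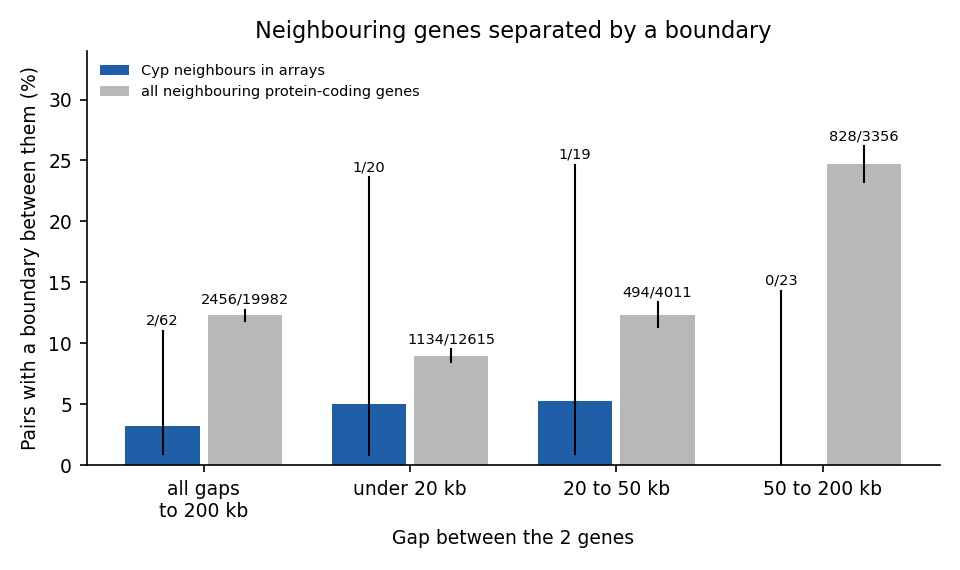
Share of neighbouring gene pairs (%, vertical axis) with a boundary between them, for Cyp neighbours in arrays (blue bars, left) and all neighbouring protein-coding genes (grey bars, right), by the gap between the genes (horizontal axis). Lines are Wilson 95% intervals, which cover counting error only, and the labels give separated pairs over all pairs. The widest gaps show 0 of 23 Cyp pairs against 828 of 3356 in general.

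Other tandem families were measured in the same way, except that any genes of the family name could be joined into an array. For Cyp genes, joining any family numbers also gave 12 arrays, 2 of them crossed. Serpin genes, which encode protease inhibitors, formed 3 large arrays, 2 of them crossed, with 1.11 boundaries per Mb (exact Poisson 95% interval 0.229 to 3.24). Olfactory receptor genes formed 34 large arrays, 17 of them crossed, with 0.922 per Mb (0.597 to 1.36). Both intervals overlap that of the Cyp arrays, so the Cyp value did not stand apart from them. The shares of near genes were 8.08% for Cyp, 11.1% for Serpin and 4.33% for olfactory receptor genes, and the median distances were 137 kb for Cyp, 229 kb for Serpin and 254 kb for olfactory receptor genes. The 95% intervals of the medians from order statistics overlapped between all Cyp (95.7 to 170 kb) and Serpin genes (152 to 285 kb). That of all Cyp genes did not overlap that of olfactory receptor genes (238 to 275 kb), most of which lie in large arrays. For the Cyp genes of large arrays alone the interval was 111 to 241 kb, which overlapped both. Genes of 1 array share domains and are not independent, so these intervals are narrower than the data warrant.

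The 4 pairs of Cyp genes lay inside domains with 5 to 21 other protein-coding genes. Cyp1a2 and Cyp1a1, which the aryl hydrocarbon receptor induces, lay 227 and 238 kb from a boundary on chromosome 9. Their annotated extents stood 4.27 kb apart. They lie on opposite strands with their starts, at 57683655 and 57697613, facing each other. The start of Cyp1a1 lies 9685 bases inside its extent, so the starts are farther apart than the extents. Their domain of 850 kb also held Cyp11a1, which makes pregnenolone from cholesterol, 294 kb from Cyp1a1 without a boundary between them, and 21 other protein-coding genes. Cyp11b1, which completes corticosterone synthesis, and Cyp11b2, aldosterone synthase, lay 84.9 and 101 kb from a boundary in a domain of 325 kb on chromosome 15 with 11 other protein-coding genes. Cyp26c1 and Cyp26a1, which degrade retinoic acid, lay 110 and 123 kb from a boundary in a domain of 625 kb on chromosome 19 with 6 other protein-coding genes. Between Cyp26a1 and Cyp2c55, the first gene of the Cyp2c array, 1.31 Mb and 3 boundaries intervened.

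Single genes lay 0 to 378 kb from a boundary. Of the 6 steroid hormone genes, 1 was near a boundary (16.7%), close to the 18.3% of all protein-coding genes. This was Cyp19a1 on chromosome 9 (54165937 to 54268164), whose far end lay inside a boundary while its annotated start lay 93.2 kb from one. Cyp21a1, the steroid hydroxylase of the adrenal cortex, lay 20.6 kb from a boundary, and Cyp17a1, needed for androgens, lay 92.2 kb away. Cyp11a1 was the deepest at 273 kb.

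Of the 7 genes of cholesterol and bile acids, 1 was near (14.3%, Wilson 95% interval 2.57 to 51.3%), which does not set them apart from the 18.3% of all protein-coding genes. An end of Cyp39a1 lay inside a boundary of chromosome 17 (43650001 to 43675000) that also overlapped Slc25a27. Cyp7a1, the rate-limiting enzyme of bile acid synthesis, lay 65.6 kb from a boundary in a domain of 325 kb. Cyp51, which demethylates lanosterol, lay 70.3 kb away, and Cyp8b1, which sets the share of cholic acid, 89.4 kb away. Cyp46a1, the cholesterol hydroxylase of neurons, lay 159 kb away. Cyp7b1, an oxysterol hydroxylase, lay 197 kb away in a domain of 1225 kb with 2 other protein-coding genes. Cyp27a1, the mitochondrial sterol hydroxylase, lay 263 kb away.

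Of the 3 vitamin D genes, 0 were near a boundary, a count too small to set against the 18.3% of all protein-coding genes (Wilson 95% upper limit 56.1%). Cyp27b1, which makes the active hormone, lay 20.1 kb from a boundary in a domain of 200 kb, the shortest that held a Cyp gene. Cyp2r1, which makes the circulating form, lay 275 kb away. Cyp24a1, which degrades both forms, lay 378 kb away and was the deepest single gene. The enzymes of 1 pathway sat at different depths.

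Of the 3 retinoic acid genes, Cyp26b1 was near a boundary, and 1 of 3 (Wilson 95% interval 6.15 to 79.2%) does not set them apart from the 18.3% of all protein-coding genes. It lay 6.09 kb from the boundary of chromosome 6 at 84600001 to 84625000, which overlapped Exoc6b, and its domain of 500 kb held 1 other protein-coding gene. Its annotated start lay at the end that faces the boundary, 6.19 kb from it. The promoter of Cyp26b1 (chr6:84593761-84594060, minus strand) is shown because, among single genes with a promoter record, its start was nearest to a boundary, and the promoter of Cyp51 (chr5:4104648-4104947, minus strand) beside it as a CpG-rich promoter of a widely expressed gene. Both are RefSeq sequences of GRCm38.p6, written 5′ to 3′ with each CG dinucleotide in capitals.
Cyp26b1: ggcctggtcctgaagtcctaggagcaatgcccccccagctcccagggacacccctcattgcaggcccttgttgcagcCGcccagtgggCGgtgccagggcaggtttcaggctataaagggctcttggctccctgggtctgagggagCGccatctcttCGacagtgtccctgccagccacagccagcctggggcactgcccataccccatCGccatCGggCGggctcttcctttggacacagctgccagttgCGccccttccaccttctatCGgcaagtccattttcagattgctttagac
Cyp51: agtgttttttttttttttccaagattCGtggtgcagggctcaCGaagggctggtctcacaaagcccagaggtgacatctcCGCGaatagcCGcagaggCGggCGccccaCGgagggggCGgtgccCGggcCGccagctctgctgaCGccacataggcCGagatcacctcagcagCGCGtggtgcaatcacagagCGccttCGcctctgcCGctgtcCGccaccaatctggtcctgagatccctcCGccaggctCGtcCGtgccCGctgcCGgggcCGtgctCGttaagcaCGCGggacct
The Cyp26b1 window held 9 CG dinucleotides and the Cyp51 window held 28.

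The other single genes belonged to families Cyp1 to Cyp4 and Cyp20. Cyp2u1, a fatty acid hydroxylase, lay 15.5 kb from a boundary, and Cyp2e1, the ethanol-inducible form, 25011 bases away. Cyp4f18, a leukotriene hydroxylase of neutrophils, lay 40.3 kb away and Cyp4v3, a fatty acid hydroxylase, 41.8 kb away. Cyp2w1 (77.6 kb), Cyp1b1 (81.9 kb), Cyp3a13 (92.9 kb) and Cyp2c23 (95.7 kb) were closer than the median of all genes. Cyp20a1, an enzyme without an established substrate, lay 137 kb away, and Cyp2ab1 lay 183 kb away.

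Some relatives of array genes lay many domains away. Cyp2c23, an arachidonic acid epoxygenase, lay 3.82 Mb from Cyp2c70 on chromosome 19 with 8 boundaries between them. Cyp3a13, a form expressed in the intestine, lay 7.42 Mb from Cyp3a57 on chromosome 5 with 10 boundaries between them. Pseudogenes lay mostly in the domains of the arrays. Of 34 annotated pseudogenes with a Cyp symbol, 30 lay in a domain with a protein-coding Cyp gene and 29 in 1 of the 7 domains with at least 5. The Cyp2d domain held 10 of them, the Cyp2c domain 4 and the Cyp4a domain 4. The 7 domains were chosen by their Cyp count, and the share of other pseudogenes in them is not given here. Cyp3a60-ps, next to the Cyp3a array, lay in the boundary that bounds that domain on the right.

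Of 7 redox partners, 15 receptors and regulators and 65 conjugating enzymes, 0 had their midpoint in a domain that held a Cyp gene midpoint. Such domains were only 36 of all 3495, and the share of all protein-coding genes in them is not given here. The count of 0 therefore does not set these genes apart. Of the genes listed as redox partners, 1 was near a boundary (14.3%, against 18.3% of all protein-coding genes). This was Fdx1, the ferredoxin of mitochondrial P450 enzymes, inside an interval. Por, the reductase of the microsomal enzymes, lay 295 kb from a boundary and Fdxr, the ferredoxin reductase, 298 kb. Of the receptors and regulators of Cyp genes, 2 were near (13.3%, against 18.3%): Rxra with an end inside an interval and Nr1i2 at 5.15 kb. Nr1i3, the receptor Car, lay 139 kb away and Ahr, the aryl hydrocarbon receptor, 298 kb. Among conjugating enzymes, 3 of 23 Gst genes (13.0%, Wilson 95% interval 4.54 to 32.1%) and 4 of 21 Sult genes (19.0%, 7.67 to 40%) were near, and both intervals hold the 18.3% of all protein-coding genes. Of the Ugt genes, 0 of 21 were near, which allows a share of up to 14.3%. The 21 Ugt genes lay in 3 domains only and are not independent of each other.

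Promoters of array genes were poor in CpG dinucleotides. A RefSeq promoter of 300 bases was matched for 77 of the 99 Cyp genes and for 17274 protein-coding genes. The median number of CG dinucleotides was 3 for the Cyp genes (quartiles 1 and 4), against 14 for all genes (quartiles 4 and 24). It was 2 for the 54 genes of large arrays and 6 for the 23 other Cyp genes. At least 10 CG dinucleotides were found in 10 Cyp promoters (13.0%), against 57.9% of all promoters, and in 2 of the 54 promoters of large arrays, those of Cyp2s1 with 17 and Cyp4f39 with 11. Outside the large arrays the most CpG-rich were Cyp46a1 with 31, Cyp51 with 28, Cyp26a1 with 26 and Cyp2r1 with 22. The median GC content was 49.7% for Cyp promoters, against 56.3% for all promoters. In the Cyp2c array it ranged from 30.3 to 44.7%, the lowest minimum and the lowest maximum of any array.

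**Figure D5:**
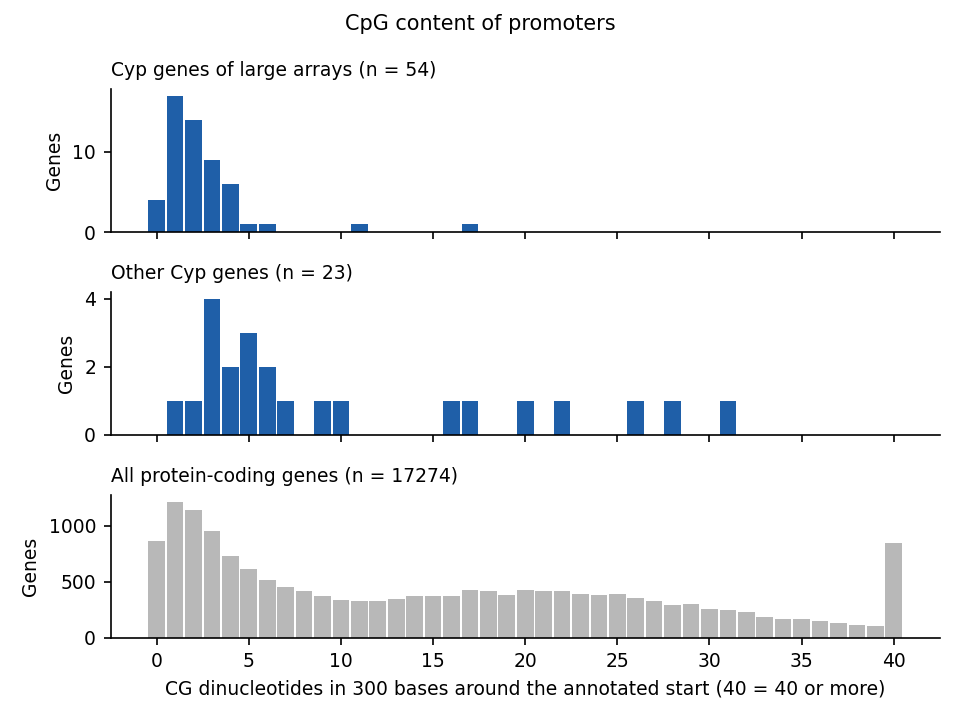
Number of promoters (vertical axes) by their count of CG dinucleotides in 300 bases around the annotated start (horizontal axis, with 40 or more in the last bar), for Cyp genes of large arrays (top, n = 54), other Cyp genes (middle, n = 23) and all protein-coding genes (bottom, n = 17274). The top panel is concentrated below 10, with only 2 promoters above, while the bottom panel extends over the whole axis.

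Motifs were counted as letters in these windows and describe sequence only. TATAAA on the gene's strand, starting 25 to 35 bases before the start, was present in 9 Cyp promoters (11.7%), against 2.61% of all promoters. The 9 genes were Cyp1a1, Cyp1a2, Cyp2a22, Cyp2a4, Cyp2a5, Cyp2c38, Cyp2c55, Cyp2e1 and Cyp8b1. TATAAA anywhere in the window on either strand occurred in 31 Cyp promoters (40.3%), against 13.4%. Letters of the core of the CTCF motif were CC, any 3 bases, AG, any 2 bases and GGC on either strand. They were present in 3 Cyp promoters (3.90%), those of Cyp26a1, Cyp2w1 and Cyp51, against 9.99%. Of the 54 promoters of large arrays 0 held them, which allows a share of up to 5.56% if the promoters were independent. Some of them are near copies of each other, so this limit is lower than the data warrant. Their median GC content was 47.2%, against 56.3% for all promoters, and its bearing on the count was not tested. The promoters of Cyp2a4 (chr7:26306942-26307241, plus strand) and Cyp2a5 (chr7:26835089-26835388, plus strand) are shown because they carry TATAAA, in capitals, and belong to different runs of the same domain. They are RefSeq sequences of GRCm38.p6, written 5′ to 3′.
Cyp2a4: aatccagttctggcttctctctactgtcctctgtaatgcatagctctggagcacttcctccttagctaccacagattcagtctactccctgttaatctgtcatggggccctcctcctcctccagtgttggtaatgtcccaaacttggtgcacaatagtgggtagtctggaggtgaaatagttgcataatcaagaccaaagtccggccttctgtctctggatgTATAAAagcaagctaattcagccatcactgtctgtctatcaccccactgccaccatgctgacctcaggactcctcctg
Cyp2a5: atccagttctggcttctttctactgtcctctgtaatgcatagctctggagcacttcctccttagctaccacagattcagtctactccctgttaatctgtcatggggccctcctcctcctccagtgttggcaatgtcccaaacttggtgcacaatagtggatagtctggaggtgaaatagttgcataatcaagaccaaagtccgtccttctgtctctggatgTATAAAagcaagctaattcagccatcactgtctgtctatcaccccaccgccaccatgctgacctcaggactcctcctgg
The box began 28 bases before the start of Cyp2a4 and 29 bases before that of Cyp2a5. Apart from a short offset and a few bases, the windows of both genes are the same sequence, so their boxes are not independent occurrences.

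Some array neighbours had nearly the same promoter, and most did not. Within arrays the median identity of aligned promoters ranged from 50.8% in the array of Cyp4f39 to Cyp4f15 to 58.0% in the Cyp3a array among the large ones. Identity above 90% occurred in 8 of 28 Cyp3a pairs, with 97.0% between Cyp3a41b and Cyp3a41a, and in 1 of 78 Cyp2c pairs, Cyp2c68 with Cyp2c69 at 91.1%. The closest pair within an array was Cyp2b13 and Cyp2b9 at 99.3%. Promoters of different arrays, such as those of Cyp2a4 and Cyp2a5, were not aligned. The promoters of Cyp2b13 (chr7:26061245-26061544, plus strand) and Cyp2b9 (chr7:26173159-26173458, plus strand) are shown because they differ at 2 bases, in capitals. As genes, Cyp2b13 and Cyp2b9 are 77.2 kb apart in 1 domain. Counted from 1 at the 5′ end, with the Cyp2b13 base first, the differences are C48T and T104C. The sequences are from RefSeq for GRCm38.p6.
Cyp2b13: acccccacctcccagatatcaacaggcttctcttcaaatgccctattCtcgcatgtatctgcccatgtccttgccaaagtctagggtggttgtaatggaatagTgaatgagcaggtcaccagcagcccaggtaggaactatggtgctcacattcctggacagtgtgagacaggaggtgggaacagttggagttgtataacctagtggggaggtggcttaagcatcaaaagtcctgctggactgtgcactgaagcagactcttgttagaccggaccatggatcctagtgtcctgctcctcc
Cyp2b9: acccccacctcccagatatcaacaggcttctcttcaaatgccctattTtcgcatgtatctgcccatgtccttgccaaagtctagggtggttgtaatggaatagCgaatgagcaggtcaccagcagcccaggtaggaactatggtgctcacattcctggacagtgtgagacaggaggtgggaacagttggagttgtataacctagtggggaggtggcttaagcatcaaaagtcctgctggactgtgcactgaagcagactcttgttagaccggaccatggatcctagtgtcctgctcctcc
Reads from such near-identical copies are hard to place, and how that touched the boundary calls inside arrays was not tested.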

How the data were processed

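The authors prepared Micro-C libraries of RAD21-dTAG cells. Per the submitters' processing notes, BWA 0.7.17 and Juicer 1.22.01 were used with mm10. The deposited list holds chromosome, start and end of each boundary from the pooled DMSO-treated ESC libraries. How boundaries were called, with which window and cut-off, is not given in the sources used here, and the depth of the libraries is unknown.

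Each of the 3515 intervals measured 25 kb. Printed positions count from 1. Genes, promoters and pseudogenes came from RefSeq tables of GRCm38.p6. A further 345 genes, which stand after the sorted genes of a chromosome with positions counted along a scaffold, were left out. No Cyp gene was among them. The gene table has no strand, so strand and start came from the promoter table, which covered 77 of the 99 Cyp genes. A pair of genes was called separated when the middle of a boundary lay between their midpoints. Promoters within an array were aligned globally (match 1, mismatch -1, gap opening -2, gap extension -0.5), and identity is the share of aligned columns that match.

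Since the list is a single pooled result, shares are given beside those of all protein-coding genes, without a test. Intervals of 95% are Wilson for shares, exact Poisson for boundaries per Mb and order statistics for medians. A count of 0 set against a share is given with the share that 3 counts would make or, for 3 genes, with the Wilson limit. The measures were tested on simulated boundaries with planted answers. The Cyp genes, the lists of partners, regulators and roles, and the measures were chosen with earlier results of these data known. Shares by gap class, promoter identity, motifs and the medians without the large arrays were added after the values were seen. All Cyp genes could be named, of other genes only the listed partners and regulators and those overlapping a described boundary, at most 4 in alphabetical order. Protein identity within arrays was planned and was not analysed here. Alternatives covered the window, the end of the gene used, the gap that joins an array, the overlap that counts as crossing and leaving out families or chromosomes. Computations used Biopython 1.88, scipy 1.17.1, numpy 2.4.6 and pandas 2.3.3 in Python 3.11.15, with figures by matplotlib 3.10.9.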

Additional observations from a re-analysis of the deposited data

How the results depend on the processing

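The share of Cyp genes near a boundary stayed below that of all protein-coding genes under every alternative run for it. It was 4.04% with no window (all genes 11.7%), 21.2% with a window of 50 kb (35.6%) and 4.04% by gene midpoint (11.2%). With each array counted once it was 16.2%, set against the 18.3% of genes counted singly. Its other alternatives gave 5.19 to 14.1%. The median distance was above that of all genes by midpoint and by interval middle, but fell below it with 1 value for each array (92.8 kb against 98.9 kb) and without the large arrays (89.4 kb), a setting chosen after seeing the data. By construction both settings give the array genes less weight. The number of crossed arrays was 2 under all 6 alternatives, although joining gaps of up to 100, 500 or 1000 kb changed the number of arrays to 18, 10 and 10. Separated Cyp pairs made up 3.64% and 3.12% with gaps of up to 100 and 500 kb, and 0% (up to 4.84%, against 2.11% in general) where the whole interval had to lie within the gap. Members lay in 34 domains when the whole gene body had to fit, against 36 by midpoint. No paired analysis was possible because the boundaries come from 1 pooled list without columns for single libraries. A stricter boundary threshold was not run, as the list has no score, and protein identity was not run. The number of contacts is unknown, and so is how weak a boundary could be called in each array.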
